A study of Mus musculus with 42 samples.

Results

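The genes described here build the extracellular matrix: the collagens, the small leucine-rich proteoglycans Lum, Dcn, Ogn, Bgn and Fmod, the large proteoglycan versican (Vcan), and the matrix glycoproteins Sparc, Fn1 and Postn. They were chosen by name, as every symbol of the form Col, number, a, number, plus these 9 genes, wherever a probe set was annotated to exactly 1 symbol. This gave 51 genes, of which 42 are collagens, out of 18337 genes with such a probe set in the series. The MG-U74Av2 array read 40 of them with 56 probe sets. The Mouse430_2 array read all 51 with 110 probe sets, so 11 were measured there only. Col6a6, Col21a1 and Col28a1 had no such probe set.

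RNA of dorsal root ganglion (DRG, spinal sensory neurons) and nodose ganglion (NG, vagal sensory neurons) of BALB/c mice was hybridised in 3 experiments. Whole ganglia (5 DRG and 7 NG samples) and samples of about 150 neurons cut out by laser capture microdissection (5 and 5 samples) were read on MG-U74Av2. Further captured samples (9 DRG and 11 NG) were read on Mouse430_2, and 5 DRG and 5 NG of these carry a sample number that also occurs among the captured samples on MG-U74Av2. No genotype, treatment or age is given, and housing was standard. The sample descriptions speak of captured neurons throughout. For the first experiment they conflict with the protocol, which has RNA extracted from whole ganglia, and the protocol was followed. They call the RNA amplified for captured samples on MG-U74Av2 only, so captured against whole cannot be told apart from experiment and amplification. No label states that samples are from different mice, and p-values therefore measure only how far these samples scatter, part of which may be technical.

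Collagens are made of 3 chains wound into a helix. Fibrillar types give tensile strength, type IV forms the network of basement membranes, type VI forms beaded filaments, and the FACIT types decorate fibrils. Small leucine-rich proteoglycans bind fibrils and set their spacing, and versican binds hyaluronan. Fibronectin and periostin link cells to fibrils, and SPARC binds collagen. In peripheral nerve and ganglia this matrix is made mainly by fibroblasts, with Schwann cells, satellite glia and vessel cells supplying basement membrane.

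RefSeq promoter sequences (GRCm38.p6, the 250 bases before the annotated start) were found for 39 of the 51 members, in 43 windows. The 5 windows below belong to genes on which the results turn. Vcan is the member with the largest ganglion difference (chr13:89742513-89742762, minus strand). Col1a2 (chr6:4505368-4505617, plus strand), Col3a1 (chr1:45311288-45311537, plus strand) and Sparc (chr11:55420081-55420330, minus strand) were much lower in captured samples. For Col1a2 this held by 1 of its 2 tested probe sets. Col19a1 (chr1:24587438-24587687, minus strand) was lower in whole NG than in whole DRG without overlap. Each is written 5′ to 3′ on the strand of its gene, with capitals at the TATA box (TATAAA), the CCAAT box (CCAAT) and the GC box (GGGCGG) on either strand.
Vcan: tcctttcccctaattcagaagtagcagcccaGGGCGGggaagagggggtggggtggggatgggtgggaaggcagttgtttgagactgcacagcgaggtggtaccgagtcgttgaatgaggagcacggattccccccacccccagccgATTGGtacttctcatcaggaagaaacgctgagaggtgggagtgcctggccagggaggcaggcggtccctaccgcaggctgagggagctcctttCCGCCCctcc
Col1a2: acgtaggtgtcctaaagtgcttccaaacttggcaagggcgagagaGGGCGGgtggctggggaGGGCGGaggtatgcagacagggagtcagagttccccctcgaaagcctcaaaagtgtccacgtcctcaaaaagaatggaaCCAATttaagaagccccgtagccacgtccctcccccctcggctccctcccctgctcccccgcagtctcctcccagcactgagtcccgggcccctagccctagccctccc
Col3a1: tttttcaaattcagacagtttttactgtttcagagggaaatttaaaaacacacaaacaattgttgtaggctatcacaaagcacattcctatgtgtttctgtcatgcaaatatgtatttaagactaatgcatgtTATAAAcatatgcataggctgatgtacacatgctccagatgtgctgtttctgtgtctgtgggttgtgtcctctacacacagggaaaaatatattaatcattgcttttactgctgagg
Sparc: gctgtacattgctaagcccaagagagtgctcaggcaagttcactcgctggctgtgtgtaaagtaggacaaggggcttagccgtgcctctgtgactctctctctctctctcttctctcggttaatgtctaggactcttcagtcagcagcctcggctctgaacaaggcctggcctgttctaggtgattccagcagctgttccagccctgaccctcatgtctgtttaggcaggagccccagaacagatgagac
Col19a1: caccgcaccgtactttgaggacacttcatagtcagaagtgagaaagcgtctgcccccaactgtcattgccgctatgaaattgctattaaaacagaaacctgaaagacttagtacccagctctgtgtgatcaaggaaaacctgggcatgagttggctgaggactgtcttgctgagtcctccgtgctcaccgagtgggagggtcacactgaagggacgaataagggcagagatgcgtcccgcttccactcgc
Searched on both strands, TATAAA was in 16.3% of the members' windows and in 12.4% of all 32851 windows of this length in the table. CCAAT was in 32.6% and 33.8%, and GGGCGG in 53.5% and 32.7%. The 3 motifs do not contain one another. In the windows shown, Vcan and Col1a2 each held 2 GC boxes and 1 CCAAT box, Col3a1 held 1 TATA box, and Sparc and Col19a1 held none of the 3. A match is a run of letters, not a bound site.

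Signals are array intensities, given after every array of a type was scaled to one trimmed mean, so their unit is arbitrary and the level of one probe set cannot be set against that of another. Differences are on the scale of log2(signal + pseudocount) and were tested with limma, with p-values adjusted by Benjamini-Hochberg over all probe sets tested and called under 0.05. A gene was read by its probe set with the highest mean, and dim probe sets were not tested. Summed signals of marker genes are given for orientation, and the brightest probe sets weigh most in them. The summed signal of 11 neuron markers was 28369 to 30308 in whole DRG, 29806 to 32280 in captured DRG, 27392 to 37700 in whole NG and 32183 to 37815 in captured NG. That of 11 fibroblast markers outside the chosen set was 3285 to 4833 and 1530 to 1805 in whole and captured DRG, and 3716 to 6244 and 1709 to 2772 in whole and captured NG. For 10 satellite glia and Schwann cell markers it was 17161 to 20812 in whole and 14956.5 to 17353 in captured DRG. In NG these markers summed to 17475.5 to 22213 in whole and 12810.5 to 13720 in captured samples, so summed signal of this list remained after capture. Single markers of it differed widely, from -2.44 for Mbp to 0.53 for Glul in captured against whole NG. No marker was at 0 in any sample. The beta actin 3′ over 5′ log2 ratio, a measure of how far RNA is read toward its 3′ end, was 2.79 ± 0.08 and 2.93 ± 0.39 in whole DRG and NG (SD, n = 5 and 7). In captured samples it was 5.31 ± 0.19 and 5.69 ± 0.23 on MG-U74Av2 (n = 5 each), and 5.44 ± 0.27 and 5.56 ± 0.36 on Mouse430_2 (n = 9 and 11).

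Most matrix genes were lower in captured samples than in whole ganglia of the same kind. In DRG, 18 of 32 tested members were lower (56.2%; 25.4% of all 6257 genes tested) and 1 was higher (22.9% of all genes). In NG, 20 of 32 were lower (62.5%; 30.3% of all genes) and 2 were higher (26%). The median difference of the members was -0.75 in DRG and -0.85 in NG, beside 0.01 and -0.01 over all genes tested. Ogn, Col12a1, Col14a1 and Col19a1 passed the filter on dim values in whole but not in captured samples, and Col9a1 in captured but not in whole samples, so the filter itself favoured a difference for them. Col2a1 and Col11a1 passed it in neither alone and were tested only in the joint fit of whole and captured samples. In both ganglia 16 members were lower, 9 were called in 1 ganglion and 7 in neither. The matching shares of all genes are not given here, so these joint counts do not show how far the members stand apart. In bulk samples, fewer cells of a type and less RNA per cell cannot be told apart.

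**Figure D1:**
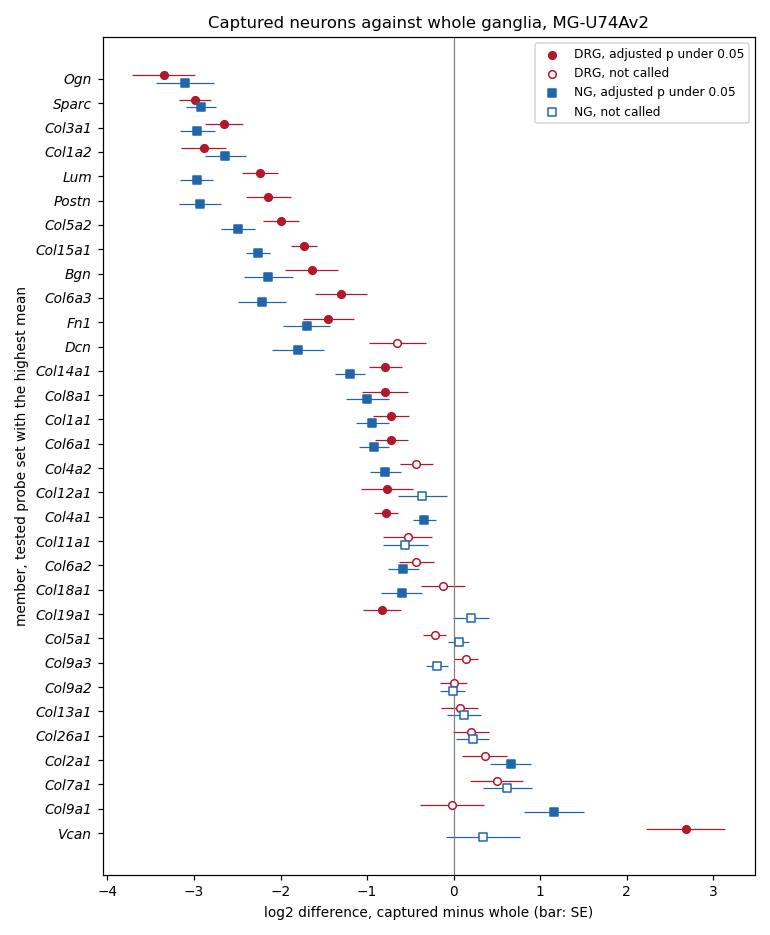
Log2 difference of captured minus whole samples (x axis, limma estimate with SE) for the 32 tested members (y axis), in DRG (red circles) and NG (blue squares), filled where adjusted p was under 0.05. Ogn, Sparc, Col3a1 and Col1a2 lie at the left between -2.64 and -3.35, and Vcan lies alone at the right in DRG at 2.68.

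Of 4 tested small leucine-rich proteoglycans, 3 were lower in captured DRG and 4 in captured NG (medians -1.94 and -2.56). Ogn (osteoglycin) had signals of 477, 288, 359, 569.7 and 425 in whole DRG and 15.9, 49.5, 28.7, 47.1 and 20.9 in captured DRG. In NG, whole samples ran from 92.85 over a median of 369 to 517, and captured ones were 61.3, 33.0, 26.8, 5.32 and 35.2. All captured values lay below all whole values in both ganglia (log2 difference -3.35, SE 0.364, adjusted p = 4.83e-08 in DRG, and -3.10, SE 0.337, adjusted p = 2.60e-08 in NG). Lum (lumican, a keratan sulphate proteoglycan of fibrils) was 510.4, 442, 610.2, 753 and 659.7 in whole DRG and 75.8, 129, 104, 139 and 138 in captured DRG. Whole NG held 651 to 1244 with a median of 966, and captured NG 178, 77.0, 95.5, 86.5 and 129.8. Again no values overlapped, with differences of -2.24 (SE 0.207) in DRG and -2.97 (SE 0.191) in NG. Bgn (biglycan) ran from 467 to 895 in whole and from 149 to 311 in captured DRG, and from 417 to 794 and from 63.7 to 359 in NG (-1.64, SE 0.303, and -2.14, SE 0.28).

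For decorin (Dcn), which binds collagen fibrils and limits their width, the difference was called in NG only, and the test of the change between ganglia missed the threshold (interaction adjusted p = 0.0757). Whole DRG held 6187, 4865, 3424, 5789.6 and 5126, and captured DRG 5162, 2549.6, 3924, 1746 and 3588. The groups overlapped, and the difference of -0.65 (SE 0.328) was not called (adjusted p = 0.109). It was called after quantile normalization (-0.84, adjusted p = 0.0249), with unscaled signals (-0.94, 0.0344) and with array weights (-0.76, 0.0213). In NG, whole samples ran from 3038 over 4036 to 5702 and captured ones were 1821, 530.4, 577, 2068 and 1953. There no values overlapped (-1.80, SE 0.304, adjusted p = 2.26e-05). Fmod (fibromodulin) was too dim to be tested on this array, at group means of 7.92 and 13.1 in whole and captured DRG and 15.2 and 6.25 in whole and captured NG.

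The 3 matrix glycoproteins were lower in both ganglia. Sparc (a collagen-binding glycoprotein) was 1798, 1284, 1520.5, 1990.2 and 1482 in whole DRG and 118.5, 199, 203, 270.1 and 192 in captured DRG. In NG it ran from 1082 over 1325 to 2096 in whole and was 213, 167, 170.3, 137 and 208 in captured samples. The highest captured sample lay far below the lowest whole sample, at 270.1 against 1284 in DRG and 213 against 1082 in NG. The log2 differences were -2.99 (SE 0.187, adjusted p = 6.09e-12) and -2.92 (SE 0.173, adjusted p = 5.57e-13). Postn (periostin) ran from 324 to 469 and from 54.6 to 107 in whole and captured DRG, and from 407 to 636 and from 15.5 to 105 in NG (-2.14, SE 0.264, and -2.93, SE 0.245). Fn1 (fibronectin) ran from 243 to 345 and from 52.3 to 123 in DRG without overlap (-1.45, SE 0.293). In NG it ran from 164 to 292 and from 21.8 to 196, and sample 003 at 196 reached into the whole range (-1.70, SE 0.272).

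Of 7 tested fibrillar collagen genes, 4 were lower in DRG and 4 in NG. By the probe set with the highest mean, Col1a2 and Col3a1, chains of type I and type III fibrils, fell the most. Col1a2 ran from 1171.0 to 2246 in whole and from 141 to 295.5 in captured DRG, and from 946 to 1746 and from 95.9 to 317 in NG (-2.89, SE 0.255, and -2.64, SE 0.236). Col3a1 ran from 323 to 633 and from 46.4 to 96.7 in DRG, and from 274 to 539.6 and from 23.5 to 68.3 in NG (-2.65, SE 0.22, and -2.96, SE 0.204). Col5a2, a chain of the type V collagen that starts fibrils, differed by -1.99 (SE 0.209) and -2.49 (SE 0.193). Col1a1 differed less on its brighter probe set, by -0.72 (SE 0.207) and -0.94 (SE 0.191). Col5a1, the partner chain of Col5a2, was 288, 248, 272, 307 and 366 in whole DRG and 250.2, 236, 252, 259 and 259 in captured DRG. These values overlapped and the difference was not called in DRG (-0.22, SE 0.129) or NG (0.06, SE 0.119). Col2a1, the cartilage fibril collagen, was higher in captured NG (129.7, 73.7, 60.9, 31.5 and 76.6 against 30.7 to 68.6; 0.66, SE 0.24, adjusted p = 0.0222). That call was lost without captured NG sample 003 (0.45, adjusted p = 0.108), and in DRG the difference was 0.36 (adjusted p = 0.26). Col2a1 was too dim to be tested in whole or in captured samples alone, so this call rests on a dim probe set.

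Of 4 tested basement membrane collagens, 2 were lower in DRG and 4 in NG. Col15a1, found where basement membranes meet fibrils, differed by -1.73 (SE 0.149) and -2.26 (SE 0.138), with no overlap in either ganglion. Col4a1, a main chain of type IV, was 959, 742, 775, 1073 and 771 in whole and 465, 435, 561, 577 and 438 in captured DRG (-0.78, SE 0.143, adjusted p = 6.62e-05). In NG its difference of -0.34 (SE 0.132, adjusted p = 0.0301) was lost in 9 of 31 alternatives, among them the leaving out of whole NG sample 046, 073, 023 or 026 or of captured NG sample 008 or 014 (from -0.28 to -0.32, adjusted p from 0.0544 to 0.0874). Col4a2 differed by -0.43 (adjusted p = 0.0671) and -0.79 (adjusted p = 0.000544). Col18a1, the precursor of endostatin, differed by -0.12 (SE 0.254) and -0.60 (SE 0.236, adjusted p = 0.0339). The latter was -0.33 without captured NG sample 007 (adjusted p = 0.192), and was not called without whole NG sample 039, 073 or 023 or captured NG sample 008 or 014 (adjusted p from 0.0544 to 0.0612) or under any other scaling. Dimmer probe sets of Col18a1 were also lower in captured NG, by -1.59 (adjusted p = 2.74e-05) and -0.65 (adjusted p = 0.00946). In DRG they gave -0.41 and 0.25 and were not called.

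Among type VI chains, Col6a3 differed by -1.30 (SE 0.299) and -2.21 (SE 0.276), Col6a1 by -0.72 (SE 0.187) and -0.92 (SE 0.173), and Col6a2 by -0.43 (not called) and -0.58 (adjusted p = 0.00935). The fibril-associated Col14a1 differed by -0.79 (SE 0.188) and -1.20 (SE 0.174), and the vessel and lens collagen Col8a1 by -0.79 (SE 0.268) and -1.0 (SE 0.248). Another 7 members were called in neither ganglion. They were Col9a2 and Col9a3, chains of the type IX collagen of cartilage, Col13a1, a transmembrane collagen, Col26a1, Col7a1, the collagen of anchoring fibrils, Col11a1 and Col5a1. Their differences ran from -0.56 for Col11a1 in NG to 0.62 for Col7a1 in NG, and for Col9a2 were -0.00 (SE 0.155) and -0.01 (SE 0.143). Col9a1 was higher in captured NG, at 38.7, 50.1, 78.45, 120.6 and 82.8 against 14.1 to 36.7 in whole NG (1.16, SE 0.345, adjusted p = 0.00582), and was not called in DRG (-0.02, SE 0.372). The call of 2 higher members in NG became 1 without whole NG sample 036 or captured NG sample 003. Col12a1 was called in DRG (-0.77, adjusted p = 0.0376) and not in NG (-0.36, adjusted p = 0.278). Col19a1 was likewise lower in captured DRG (-0.83, SE 0.221, adjusted p = 0.00313) and not called in NG (0.20, adjusted p = 0.425). For Col10a1, Col11a2, Col17a1, Col22a1, Col4a3, Col4a4, Col4a5 and Fmod, all 4 groups were too dim for the test.

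Different probe sets of one gene gave different sizes of this difference. Of 8 members with several tested probe sets, all probe sets were lower for 4 in DRG and 5 in NG, and only some for 3 and 3. The brighter Col1a2 probe set fell, but the other was 455 and 505 in whole and captured DRG (0.17, adjusted p = 0.474). In NG it was higher in captured samples, at 639 against 431 (0.55, SE 0.167, adjusted p = 0.0064). For Col5a1 the order was turned: the brighter probe set was not called, and the other was 84.1 against 9.28 in DRG (-2.21, SE 0.17) and 90.9 against 9.31 in NG (-2.30, SE 0.158). The second Col1a1 probe set differed by -3.03 and -2.81, that of Col6a1 by -2.22 and -1.76 and that of Col3a1 by -0.84 and -1.51. The second Bgn probe set differed by -0.28 and -0.21 and was not called. The Ogn probe sets gave -3.35 and -3.86 in DRG and -3.10 and -3.18 in NG. Where each probe set lies on its transcript was not analysed here, so the part of the higher 3′ over 5′ ratio of captured samples in these gaps was not tested.

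**Figure D2:**
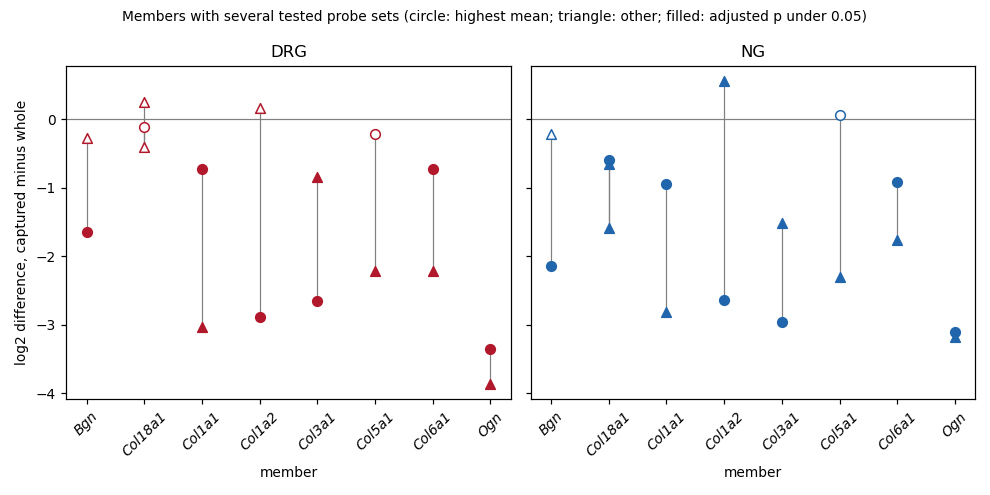
Log2 difference of captured minus whole samples (y axis) for every tested probe set of the 8 members with several (x axis), in DRG (left) and NG (right). Circles mark the probe set with the highest mean, triangles the others, and filled symbols an adjusted p under 0.05. The gap is 3.06 in DRG and 3.19 in NG for Col1a2 and 0.51 and 0.08 for Ogn.

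Markers of other cells moved as well. Of 8 tested fibroblast markers, 6 were lower in captured DRG and 6 in captured NG, and 0 were higher (medians -1.86 and -1.64). Pdgfra, a receptor for platelet-derived growth factor, differed by -2.60 and -2.83, Islr by -2.33 in DRG and the binding protein Igfbp6 by -2.84 in NG. Among 9 markers of satellite glia and Schwann cells, 4 were lower and 2 higher in DRG and 7 and 1 in NG, with the myelin gene Mbp at -2.57 and -2.44. Of 11 endothelial and mural markers, 5 and 6 were lower, with 0 and 1 higher. Macrophage markers were lower for 3 of 9 in each ganglion, near the shares of all genes. Of 11 neuron markers, 5 were lower and 3 higher in DRG and 6 and 4 in NG (medians -0.30 and -0.57). The part of these cells in the matrix gene differences was not tested.

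Genes that make and hold collagen were also measured. Of 11 tested collagen-modifying enzymes and chaperones, 4 were lower and 2 higher in captured DRG, and 6 and 2 in captured NG. Serpinh1, the collagen chaperone HSP47, differed by -1.91 and -2.38, and Crtap, a part of the complex that hydroxylates collagen prolines, by -1.82 and -0.97. Of 10 laminins and basement membrane partners, 4 and 6 were lower and 1 and 1 higher, led by Hspg2 (perlecan) at -2.93 and -2.46. Matrix receptors were mixed: of 12, 4 and 5 were lower and 2 and 3 higher. The integrin subunit Itgb1 was higher in both (0.48 and 0.45). Of 6 tested proteases and inhibitors, 2 were lower and 1 higher in each ganglion, with Timp3 at -0.77 and -1.27.

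Versican stood apart from the other members. Vcan signals were 141.5, 218, 143, 334 and 223 in whole DRG and ran from 21.4 over 57.4 to 68.7 in whole NG. In captured samples on MG-U74Av2 they were 1735, 1505, 2115, 981 and 848 in DRG and 18.2, 16.3, 96.4, 307 and 69.95 in NG. On Mouse430_2, by another probe set, DRG ran from 378 over 779 to 1138 and NG from 4.21 over 20.8 to 207. DRG samples lay above all NG samples in each of the 3 experiments. Captured DRG samples lay above all whole DRG samples (log2 difference 2.68, SE 0.462, adjusted p = 4.21e-05), a 6.43-fold difference. In NG captured and whole values overlapped (0.34, SE 0.427, adjusted p = 0.525).

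**Figure D3:**
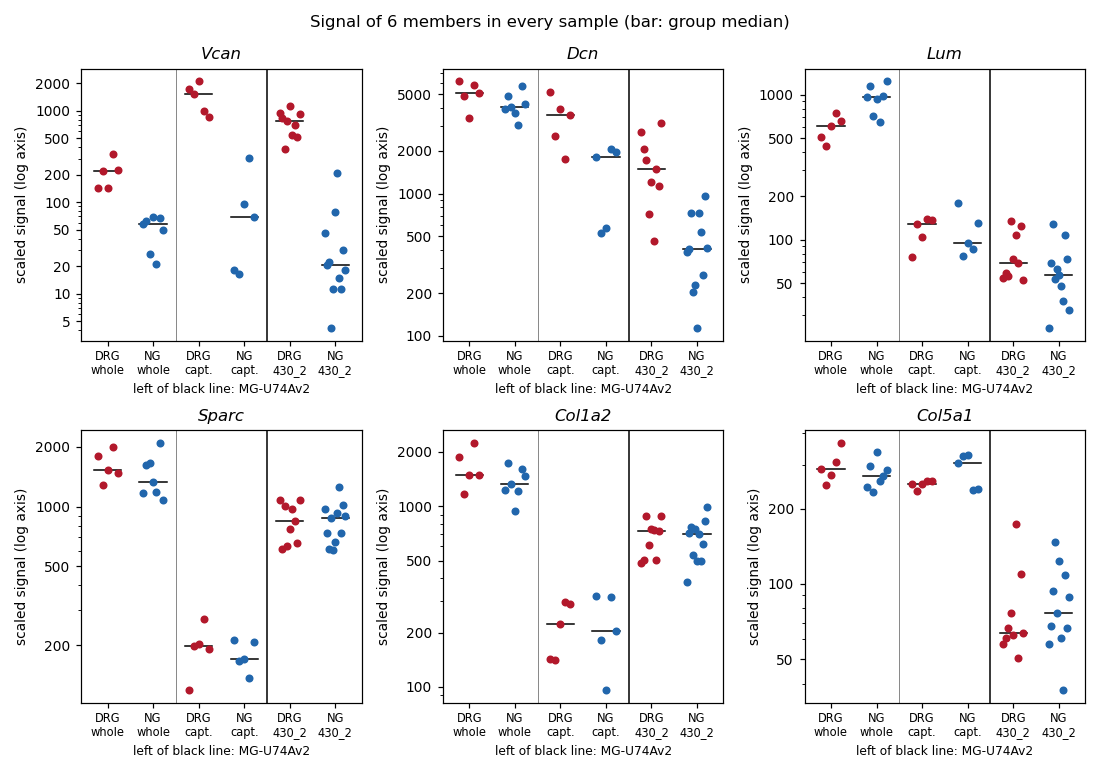
Scaled signal (y axis, log scale, arbitrary unit) of 6 members in every sample of the 6 groups (x axis), DRG in red and NG in blue, with bars at group medians. Values right of the black line come from another array and other probe sets and are not comparable with those to the left. Vcan in captured DRG (848 to 2115) lies above whole DRG, while Lum and Sparc lie lower in all captured samples on MG-U74Av2.

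The NG minus DRG difference of Vcan was -1.85 in whole ganglia (SE 0.25, adjusted p = 2.35e-05; 3.61-fold). It was -4.20 in captured samples on MG-U74Av2 (SE 0.534, adjusted p = 5.76e-05) and -4.40 on Mouse430_2 (SE 0.364, adjusted p = 5.38e-10). Several captured NG values lie near the pseudocounts of 11.4 and 7.48, so the size depends on that choice and no fold is given for them. On MG-U74Av2 it ran over 22 alternatives from -3.67, with a larger pseudocount, to -5.75, with the actin ratio as a covariate. The difference was larger in captured than in whole samples of MG-U74Av2 (interaction -2.35, SE 0.629, adjusted p = 0.00995). This interaction stayed called in all 31 alternatives (from -1.99 to -2.87), none of which used the actin ratio as a covariate. A second Vcan probe set of Mouse430_2 gave -3.04 (SE 0.406), at 25.4 in NG and 182 in DRG. Another, at 27.9 and 29.2, gave -0.10 and was not called.

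Between whole ganglia 6 members differed. Of 29 tested members, 4 were higher in NG (20.5% of all 5893 genes tested) and 2 were lower (16.9%), and 11 were too dim. The median difference was -0.02, beside 0.04 over all genes. The split changed with scaling, to 2 higher and 2 lower after quantile normalization, 1 and 3 with equal medians and 0 and 7 with unscaled signals. Lum was higher in NG, with whole values of 651 to 1244 against 442 to 753 that overlapped (0.65, SE 0.16, adjusted p = 0.00404; 0.28 and not called with unscaled signals). Col5a2 (0.50, SE 0.176, adjusted p = 0.0344) and Col9a3 (0.34, SE 0.122, adjusted p = 0.0388) were each lost in 13 of 23 alternatives. Leaving out 1 sample ended the Col5a2 call for DRG 084, 019, 026 or 037 and NG 046, 073 or 023 (from 0.41 to 0.52, adjusted p from 0.0518 to 0.11). It ended the Col9a3 call for DRG 070, 084, 019 or 026 and NG 046, 036, 023 or 026 (from 0.28 to 0.35, adjusted p from 0.0528 to 0.111). Col15a1 (0.41, SE 0.128, adjusted p = 0.017) was lost without DRG 026 (0.34, 0.0629) or 037 (0.36, 0.0519). The number of higher members was 1 without DRG 026, 2 without DRG 037, NG 046 or NG 023, and 6 at most.

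Lower in whole NG was Col19a1, a FACIT collagen of basement membrane zones. Its signals were 49.45, 53.7, 77.3, 41.7 and 52.2 in DRG and 14.6 to 32.0 in NG, without overlap (-0.89, SE 0.18, adjusted p = 0.00094), and it kept this call in all 23 alternatives. No difference was called for Dcn (-0.27, SE 0.151), Bgn (-0.17, SE 0.169), Ogn (-0.32, SE 0.338), Sparc (-0.18, SE 0.152), Fn1 (-0.29, SE 0.135) or Postn (0.28, SE 0.12). Among collagens this held for Col1a1 (0.45, adjusted p = 0.0593), Col1a2 (-0.27), Col3a1 (-0.05), Col4a1 (-0.02), Col5a1 (-0.10), Col6a1 (0.13) and Col18a1 (-0.19). A second Ogn probe set was lower in NG, at 215 against 348 (-0.67, SE 0.154, adjusted p = 0.00264). The second Col1a1 probe set ran opposite to the first, at 123.5 against 188 (-0.58, SE 0.202, adjusted p = 0.0333). The first was called without DRG 084 (0.55, adjusted p = 0.0354) or NG 073 (0.58, 0.00355). Dcn was called without DRG 037 (-0.40, 0.0304). Postn was called without DRG 019, NG 039 or NG 026 (from 0.33 to 0.34, adjusted p from 0.0488 to 0.0499).

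Markers of other cells were counted between the whole ganglia too. Over all 5893 genes tested, 20.5% were higher in NG and 16.9% lower, and these counts of RNA do not show numbers of cells. Of 11 endothelial and mural markers 5 were higher in NG and 2 lower, and of 9 macrophage markers 3 were higher. The summed signal of 9 blood, muscle and cartilage markers was 537 to 935 in DRG and 566 to 4202 in NG, highest in NG sample 026, and of 5 tested the muscle gene Tnnc2 was higher (0.95). Of 8 fibroblast markers, 1 was higher, the actin-severing Gsn at 0.98. Among 11 collagen-modifying enzymes and chaperones 4 were higher in NG and 0 lower, with the prolyl isomerase Ppib at 0.84 and the prolyl hydroxylase P4ha2 at 0.83. Of 9 laminins and partners, 3 were higher, with Lamb2 at 0.89 and Lama4 at 0.70, and Lamc1 was lower at -0.35. Of 12 receptors 1 was higher, Itgav at 0.63, and 3 lower, with dystroglycan (Dag1) at -0.97. Their part in the member differences was not tested.

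In captured samples on MG-U74Av2, 1 of 26 tested members was higher in NG (11.0% of all 5779 genes tested) and 2 were lower (11.9%), with a median of -0.07 beside 0.04 over all genes. Besides Vcan, Dcn was lower in NG. Its values overlapped only through DRG sample 010 (1746) among NG samples 003, 010 and 014 (1821, 2068 and 1953), and the difference was -1.42 (SE 0.395, adjusted p = 0.0186). Without DRG sample 003, the one with the highest Dcn at 5162, the difference was -1.25 (adjusted p = 0.0509). With the sample number as a block it was -1.22 (adjusted p = 0.0579). Col4a1 was higher in NG, at 743, 679, 593, 762 and 562 against 465, 435, 561, 577 and 438. The difference of 0.42 (SE 0.141, adjusted p = 0.0442) was lost in 12 of 22 alternatives, among them the leaving out of DRG 003, 014 or 006 or NG 010, 003 or 007 (from 0.37 to 0.42, adjusted p from 0.0773 to 0.105). On Mouse430_2 the Col4a1 difference was 0.66 (adjusted p = 0.0128) among the sample numbers that also occur on MG-U74Av2, and was not called over all samples. The count of higher members was 2 without DRG or NG sample 008 and 0 without DRG sample 014 or NG sample 003 or 007, and the count of lower members was 1 without DRG sample 003. Under quantile normalization or with unscaled signals the counts were 0 higher and 2 lower.

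The remaining members of this comparison were not called. Lum (-0.07, SE 0.228), Sparc (-0.10, SE 0.199), Col1a2 (-0.02, SE 0.302), Col5a1 (0.17), Col6a1 (-0.07), Col1a1 (0.24) and Col3a1 (-0.36) were close to 0. Postn was -0.51 (SE 0.348), and ran from -0.72 to -0.19 over its 22 alternatives, the latter without NG sample 008, its lowest at 15.5. For Bgn (-0.68, SE 0.365), Fn1 (-0.54, SE 0.378) and Col18a1 (-0.67, SE 0.314), leaving out NG sample 003 brought the call. Without it 5 members were lower, among them Bgn (-1.05, adjusted p = 0.0111), Col18a1 (-0.93, 0.0274) and Fn1 (-0.92, 0.0298). That sample held 359 of Bgn, 196 of Fn1 and 293 of Col18a1, against at most 132, 64.0 and 154 in the other 4 NG samples. Ogn, Fmod, Col12a1, Col14a1 and Col19a1 were among the 14 members too dim to test.

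On Mouse430_2, 2 of 40 tested members were higher in captured NG (13% of all 13959 genes tested) and 6 were lower (13.6%), with a median of -0.12 beside -0.02 over all genes. With quantile normalization or equal medians the split was 3 and 4. Dcn ran from 465 over 1481 to 3123 in DRG and from 113 over 407 to 962 in NG. The ranges overlapped between 465 and 962, and NG was lower (-1.85, SE 0.342, adjusted p = 0.000188; 3.6-fold). A dim second Dcn probe set, at 51.1 and 54.3, gave -0.13. Among sample numbers that also occur on MG-U74Av2 the Dcn difference was -1.20 (adjusted p = 0.109).

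Smaller differences on this array rested on fewer settings. Postn (-0.74, SE 0.265, adjusted p = 0.0456) ran from 67.0 to 173 in DRG and from 17.7 to 147 in NG. It was lost in 9 of 13 alternatives, and Ogn (-0.67, SE 0.232, adjusted p = 0.0386) in 8. Col11a1, a fibril-nucleating collagen, differed by -0.63 (SE 0.205, adjusted p = 0.0257) and was lost in 3 of 13 (adjusted p up to 0.208). Col19a1 ran from 17.4 over 45.2 to 189 in DRG and from 1.57 over 20.2 to 98.6 in NG (-1.31, SE 0.399, adjusted p = 0.0178). Among sample numbers absent from MG-U74Av2 its difference was -0.22 (adjusted p = 0.83), and a second probe set gave 0.61 (adjusted p = 0.148). Higher in NG were Col6a2, a type VI chain, and Col27a1, a fibrillar collagen. Col6a2 ran from 177 over 273 to 356 in DRG and from 222 over 732 to 1287 in NG (1.2, SE 0.255, adjusted p = 0.00086), but its second probe set, at 345 and 292, gave 0.15 (adjusted p = 0.676). Col27a1 differed by 0.90 (SE 0.322, adjusted p = 0.0449) and was lost in 7 of 13 alternatives, with a second probe set at 0.34 (adjusted p = 0.398). Its highest NG value was 562 in sample 003, against 178 in the next. Leaving out each array in turn was not among the alternatives on this array.

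No difference was called for Sparc (-0.01, SE 0.146), Lum (-0.38, SE 0.241), Bgn (-0.62, SE 0.249, adjusted p = 0.0756), Fn1 (-0.19, SE 0.246) or Fmod (0.29, SE 0.283). The same holds for Col1a1 (0.13), Col1a2 (-0.04), Col3a1 (-0.29), Col4a1 (0.16), Col5a1 (0.08), Col6a1 (0.08) and Col18a1 (-0.20). Of the collagens read on this array alone, Col16a1 (-0.23), Col20a1 (0.23), Col23a1 (-0.36), Col25a1 (-0.56), Col4a6 (0.20), Col5a3 (-0.01), Col6a5 (0.07) and Col8a2 (-0.23) were not called. Col24a1 and Col6a4 were among the 11 members too dim to test.

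**Figure D4:**
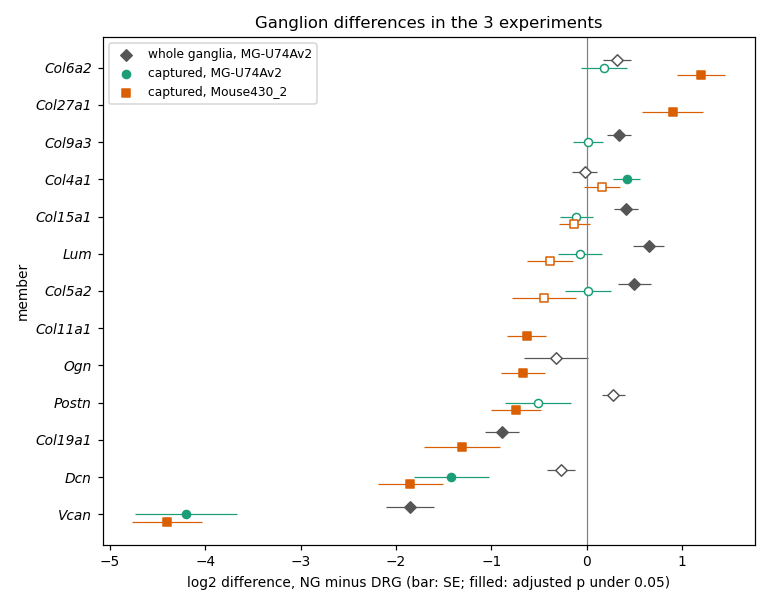
Log2 difference of NG minus DRG (x axis, limma estimate with SE) for the 13 members called in any of the 3 experiments (y axis), filled where adjusted p was under 0.05. A missing symbol means that the member was not tested in that experiment. Vcan lies at -1.85, -4.20 and -4.40, and Dcn at -0.27, -1.42 and -1.85.

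Versican binds hyaluronan together with link proteins. Of 11 tested hyaluronan-binding matrix genes and tenascins on Mouse430_2, 5 were lower and 0 higher (median -0.62), led by the link proteins Hapln4 (-1.92, SE 0.251) and Hapln1 (-1.76, SE 0.207). On MG-U74Av2 the tested genes of this list were Bcan (-0.33), Has3 (0.25), Ncan (0.22) and Tnxb (-0.51), none of them a link protein, and none was called (adjusted p from 0.205 to 0.536). Of 14 matrix receptors, 7 were lower and 1 was higher on Mouse430_2, with Sdc1 (syndecan-1) and Itgb1 at -1.81 each. On MG-U74Av2, 5 of 12 were lower, with Itgav at -2.50. Itgb1 was 0.02 there (adjusted p = 0.93). Of collagen-modifying enzymes and chaperones, 3 of 10 were higher and 2 lower on MG-U74Av2, and 3 of 19 and 2 on Mouse430_2. P4ha2 was higher on both (0.87 and 2.02), and P4ha1, another prolyl hydroxylase subunit, was lower on both (-0.99 and -1.02). Ppib was lower on MG-U74Av2 (-0.63) and Pcolce2 on Mouse430_2 (-1.37). Of laminins and partners, 1 of 8 was higher and 1 lower on MG-U74Av2, and 1 of 13 and 2 on Mouse430_2. Agrn (agrin) was higher on both (0.73 and 0.81), Lamb1 was lower on MG-U74Av2 (-0.59), and Lama1 (-1.54) and Nid1 (-0.83) were lower on Mouse430_2. Markers of other cells were counted here too: of glial markers, 3 of 9 were lower and 0 higher on MG-U74Av2, and 4 of 11 were lower and 1 higher on Mouse430_2. Gja1 and S100b were lower on both (-2.28 and -1.59, then -1.15 and -1.22), and the myelin gene Cnp was higher on Mouse430_2 (0.76). Of endothelial and mural markers, 3 of 7 were lower and 1 higher on MG-U74Av2, and 4 of 11 were lower and 2 higher on Mouse430_2. The mural genes Rgs5 (-2.94) and Pdgfrb (-1.56) were lower on Mouse430_2, and the endothelial genes Kdr (2.44) and Flt1 (1.38) were higher. On MG-U74Av2 the endothelial genes Cdh5 (-1.79) and Eng (-0.98) and the mural gene Rgs5 (-0.81) were lower, and Kdr (1.63) was higher. Endothelial genes thus went both ways. Fibroblast markers were higher in NG for 1 of 7 and 2 of 11 and lower for 0 of 7 and 0 of 11 on the 2 arrays. The part of these cells in the Vcan and Dcn differences was not tested.

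In the test of a change in ganglion difference between whole and captured samples, 2 of 32 members passed, 1 upward (8.25% of all 6257 genes tested) and 1 downward (11.1%). The downward one was Vcan. The upward one was Col19a1 (1.02, SE 0.301, adjusted p = 0.0171), which was too dim to be tested in captured samples on MG-U74Av2 alone and entered this fit through whole ganglia, where DRG is high. Its signals in captured samples on MG-U74Av2 were 14.2, 15.5, 31.2, 39.9 and 33.9 in DRG and 28.6, 32.4, 42.6, 20.8 and 24.6 in NG. These values overlapped and lie close to the filter on dim probe sets, so they say little on the ganglion difference. On Mouse430_2, captured NG was lower by the brighter probe set (-1.31, adjusted p = 0.0178), as in whole ganglia. The other tested probe set there gave 0.61 (adjusted p = 0.148). For Dcn (-1.15, SE 0.447, adjusted p = 0.0757) and Lum (-0.72, SE 0.281, adjusted p = 0.0754) the change missed the threshold. Dcn was called without captured DRG 010, captured NG 010 or captured NG 014 (from -1.34 to -1.37, adjusted p from 0.0356 to 0.0459). Lum was called without whole NG 039, captured DRG 003 or captured NG 003 (from -0.81 to -0.89, adjusted p from 0.0189 to 0.0428). For Postn (-0.79, SE 0.36) this was so without captured NG 010 (-1.0, adjusted p = 0.0406). The downward count was 3 without captured DRG sample 003 or captured NG sample 003 or 010, and 2 without whole DRG 070, whole NG 039, captured DRG 010 or captured NG 014. The upward count was 2 without captured DRG 008. Interaction values of other members were -0.51 for Bgn, 0.25 for Ogn, 0.08 for Sparc, -0.25 for Fn1, -0.22 for Col1a1, 0.25 for Col1a2, -0.31 for Col3a1, 0.44 for Col4a1, 0.28 for Col5a1, -0.20 for Col6a1 and -0.48 for Col18a1. Dimmer probe sets of Col18a1 were called downward in this test, at -1.18 (adjusted p = 0.0452) and -0.90 (adjusted p = 0.0383).

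Decorin and other matrix genes had their extremes in different captured DRG samples in some cases and in the same ones in others. On MG-U74Av2, sample 003 had the highest Dcn (5162) and the lowest Lum (75.8), Sparc (118.5), Postn (54.6), Fn1 (52.3) and Bgn (149) of the 5. On Mouse430_2, samples 015 and 002 had the highest Dcn (3123 and 2728) and Lum of 52.5 and 54.7, and also the highest Sparc (1073 and 1081). Samples 010 and 006 had the lowest Dcn (465 and 716) and Lum of 108 and 134. These samples were picked after their values were seen.

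The labels do not say whether samples that share a number on both arrays hold the same RNA, so the captured experiments are not taken as independent. For several members the highest and lowest of the shared numbers were the same on both arrays. Vcan in NG was highest in sample 010 on both arrays (307 and 207) and lowest in sample 007 (16.3 and 11.4). In DRG it was highest in sample 008 (2115 and 1138) and lowest in 014 (848 and 519.6) among the shared numbers. NG sample 003 had the highest Fn1 (196 and 106), Lum (178 and 129) and Bgn (359 and 293) on both arrays among the 5. Dcn in DRG was highest in 003 (5162 and 2065) and lowest in 010 (1746 and 465). For other members the order differed. Col9a1 in NG sample 010 was the highest of the shared numbers on MG-U74Av2 (120.6) and the lowest on Mouse430_2 (10.8). Sparc in NG sample 010 was the lowest on MG-U74Av2 (137) and reached 933 on Mouse430_2, below only sample 014 (1023). These members were picked after their values were seen.

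**Figure D5:**
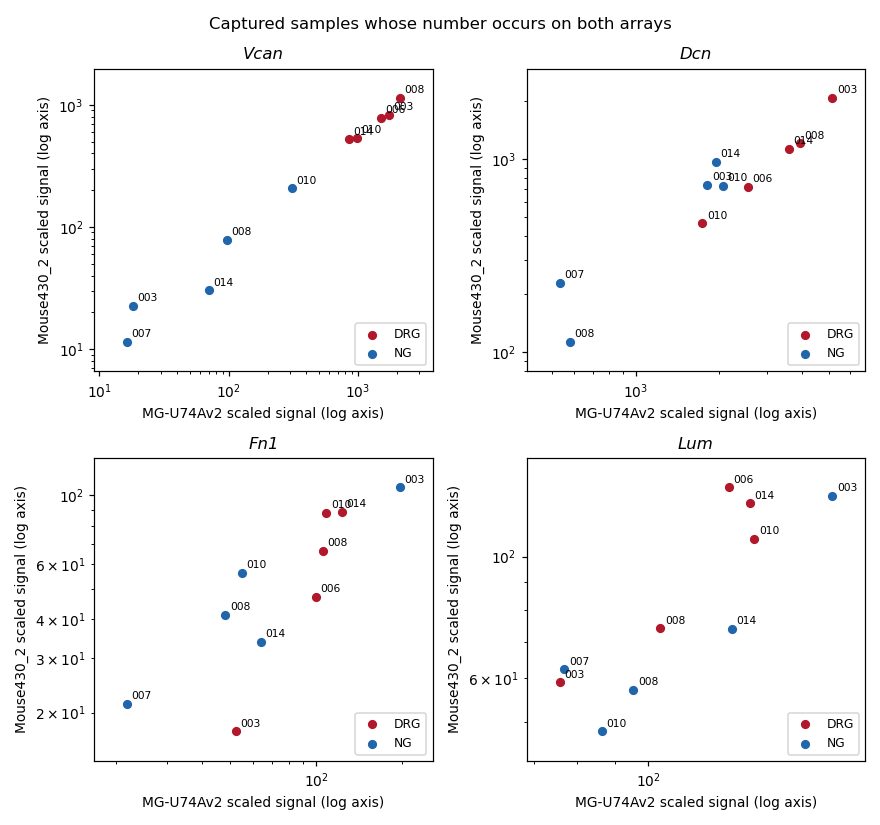
Scaled signal of Vcan, Dcn, Fn1 and Lum in the 10 captured samples whose number occurs on both arrays (x axis MG-U74Av2, y axis Mouse430_2, both log scales), DRG in red and NG in blue, labelled by sample number. Vcan DRG samples (848 to 2115 on MG-U74Av2) lie apart from NG samples, of which 010 is the highest on both arrays.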

How the data were processed

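Gene expression of 42 samples in 6 groups was measured on Affymetrix arrays. The deposited values are signal intensities, 1 per probe set. Per the submitters' processing notes the authors computed them with MAS5, of which the sources used here name no version. Each array's 2% trimmed mean ran from 84.2 to 408, and the intensities had thus not been brought to a common level. The number of arrays limits the precision.

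Here each array was scaled to one 2% trimmed mean per array type. Values were log2(signal + pseudocount), the pseudocount being the 20th percentile of all scaled values (11.4 on MG-U74Av2 and 7.48 on Mouse430_2), a scale on which dim genes differ by less than their true ratio. Testing required that a probe set exceed the 40th percentile of an array on as many arrays as the smallest group holds, or more. Tests were run in R 4.3.3 with limma 3.58.1, using lmFit followed by eBayes with a mean-variance trend and robust moderation, two-sided, with Benjamini-Hochberg adjustment over all probe sets tested. Each experiment was fitted on its own for NG minus DRG, and all 22 MG-U74Av2 arrays jointly for captured minus whole and for the interaction. Scripts were tested on simulated data.

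Genes came from the platform annotation. The background percentages count genes by their brightest probe set. The rule named, per comparison, the 8 members per direction with the largest called difference and 16 fixed members, and from other lists up to 2 called genes per direction. Members named beyond it account for the rest. Members and lists were chosen with earlier results of these data known.

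Alternatives for every fit were 3 other scalings, 2 other pseudocounts, no filter, array weights and the mean over a gene's probe sets. Each array was left out in turn on MG-U74Av2 only, so no Mouse430_2 result was checked this way. The sample number as a block was used for captured NG minus DRG only. The actin ratio as a covariate was used for NG minus DRG only, not for captured minus whole or the interaction. A fit of all 4 groups was used on MG-U74Av2, and subsets of sample numbers on Mouse430_2. Reading a gene by its dimmest tested probe set was added after seeing the data.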

Additional observations from a re-analysis of the deposited data

Results flagged for a closer look

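In 86 sets of values of named members, each holding 4 to 10 samples of a group, 3 samples lay far from the others, and chance alone gives about 1 in 20. Col1a1 was lowest in whole NG sample 073, at 320.5 against 536.1 in the next sample. Ogn was lowest in whole NG sample 039, at 92.85 against 309.7. Fn1 was lowest in captured DRG sample 003 on MG-U74Av2, at 52.29 against 99.69.

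The interaction of ganglion with capture in limma passed the threshold for Vcan, at -2.35 on the log2 scale, and for Col19a1, at 1.02. Col19a1 was too dim to be tested in captured samples on MG-U74Av2 alone. On Mouse430_2 captured NG was lower by the brighter probe set (-1.31, adjusted p = 0.0178), as whole NG was, while the other tested one gave 0.61 (adjusted p = 0.148).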

How the results depend on the processing

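The lower counts of captured against whole samples kept within 1.5 times their value in every alternative run, and leaving out 1 array gave 16 to 19 in DRG and 18 to 21 in NG. The actin ratio was not used as a covariate for captured minus whole or the interaction, so its part in these counts was not tested. Higher members there were 2 in DRG with no filter and 1 in NG with no scaling, with ranges of 1 to 1 and 1 to 3 on leaving out 1 array. In whole ganglia, higher members were 2 with quantile normalization or the actin ratio as a covariate, 1 with median scaling and 0 with no scaling, and 1 to 6 on leaving out 1 array. Lower members there were 7 with no scaling, 4 by the dimmest probe set, 5 with the actin ratio, and 2 to 3 on leaving out 1 array. In captured samples on MG-U74Av2, higher members were 0 with quantile normalization, no scaling, array weights or the actin ratio, 2 in the fit of all 4 groups, and 0 to 2 on leaving out 1 array, while lower members ranged from 1 to 5. On Mouse430_2, higher members were 1 with no scaling or no filter, 0 by the dimmest probe set and 0 among sample numbers not on MG-U74Av2, and lower members 2 by the dimmest probe set and 3 in either subset of sample numbers, each a smaller fit. Interactions were 2 upward with array weights, and downward 3 with array weights and 2 by the mean or the dimmest probe set, with ranges of 1 to 2 and 1 to 3 on leaving out 1 array.

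With a call under at least one choice of probe set, the direction turned for 5 results. Uncalled values near 0, such as Bgn and Col6a1 in whole ganglia, also changed sign between probe sets. By the dimmest probe set Col1a1 in whole ganglia was -0.58, Col19a1 on Mouse430_2 0.61, and Col1a2 0.17 and 0.55 in captured against whole DRG and NG. Col5a1 in captured against whole NG was -2.30 by the dimmest probe set and -1.12 by the mean. Where no value shows it, the cause of these changes was not tested. Probe sets near background limit what dim members can show.

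With the sample number as a replicate block, captured NG against DRG gave 0 higher and 1 lower member on MG-U74Av2 (4 numbers in both ganglia) and 1 higher and 2 lower on Mouse430_2 (7 numbers). Deviations of same-numbered DRG and NG samples from their group means had r from -0.154 to 0.155, and not every sample matched its own number best. Deviations of different ganglia from the same mouse need not run together, so this cannot tell whether same-numbered samples are from the same mouse. For the other comparisons no block could be fitted, since whole DRG and NG share only 1 number and captured and whole samples of a ganglion share none.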
